A study of Rattus norvegicus with 22 samples.

Results

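The genes described here encode the proteins of the cytosolic ribosome, measured in rat microglia that were either fresh from the brain or had been cultured with and without serum. They were taken by gene symbol, as every symbol that starts with Rpl, Rps or Rplp and a number, leaving out the S6 kinases, the binding protein of Rps19, the Rpl7-like genes and symbols ending in -ps. Of 94 symbols with such a start, 84 were left after these exclusions, and 82 of them had at least 1 FPKM in at least 3 of 22 libraries, among 17284 symbols in all. FPKM are fragment counts corrected for transcript length and for library size, so levels can be set side by side between genes. Of the 82 genes, 50 belong to the large subunit, with the stalk genes Rplp0, Rplp1 and Rplp2 counted there, and 32 to the small subunit. The only measured value in that choice was the floor on FPKM, which 80 of the 82 genes met in all 22 libraries. Just inside it lay Rpl3l, with 3 libraries at or above 1 FPKM, and Rpl37a, with 19. Just outside lay Rpl39l, with 1 library, and Rps4x-ps1, with 2. Rpl37a-ps1, which is named as a pseudogene, met the rule and is counted.

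Microglia are the resident macrophages of the brain. Cells came from Sprague-Dawley rats at postnatal day 21 and were bound to dishes coated with a CD11b antibody, after a Percoll step that removes myelin. The Acute group (n = 3) had no time in culture. All other cells were cultured for 8 days. The TIC group (n = 6) stayed in the serum-free TIC medium throughout, and other TIC cultures had 10% fetal calf serum added near the end. Serum was present for the last day in FCS 1d (n = 5). It was present for the last 3 days in FCS 3d (n = 4) and for the last 5 days in FCS 5d (n = 4). The design calls the samples biological replicates, and whether any shared an animal is not stated. CD11b is also carried by blood granulocytes and monocytes, and the dish does not separate them from microglia. RNA was selected by its poly-A tail and amplified with the SmartSeq2 protocol. Libraries were made and sequenced in 2 batches, each with samples of every condition, but no label gives the batch of a sample.

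A cytosolic ribosome is built from a large and a small subunit, each a scaffold of ribosomal RNA with many proteins that are mostly present in a single copy. Cells therefore make these proteins in matched amounts, and their mRNAs are among the most abundant and most evenly expressed in growing cells. Most vertebrate ribosomal protein mRNAs start with a C followed by a run of C and T, the 5' terminal oligopyrimidine tract, through which mTORC1 signalling and the protein Larp1 control their translation and stability. In macrophages, as in other cells, output of ribosomal components rises when cells leave quiescence to grow and divide.

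The labelled cell type was checked against marker genes. All 16 microglia and macrophage markers had at least 1 FPKM in every library. Other cell types were seen mainly in the Acute libraries. The 11 granulocyte and monocyte markers in the table summed to at most 64.5 FPKM in all cultures, with S100a9, Ngp and Mpo at 0 in each, against 2114 to 18910 FPKM in Acute, where 8 of them had at least 1 FPKM in each library. The 6 red blood cell markers were at 0 in all cultures, against 736 to 2068 FPKM in Acute. The 11 lymphocyte markers summed to at most 17.3 FPKM in cultures, against 177 to 378 FPKM in Acute. The 11 oligodendrocyte markers summed to 20.8 to 87.2 FPKM in cultures, against 214 to 394 FPKM in Acute. The 18 markers of astrocytes, neurons, endothelial cells and fibroblasts summed to 15.8 to 34.6 FPKM in cultures, against 28.6 to 208 FPKM in Acute. All of these lists together held 0.0161% to 0.0358% of the summed FPKM in the cultures, against 0.606% to 3.61% in Acute. The microglia markers themselves summed to 5712 to 13810 FPKM in TIC, against 21400.0 to 36860.0 FPKM in Acute. Their part in the differences between TIC and Acute was not tested. In bulk RNA such as this, fewer cells of a type and less RNA per cell cannot be told apart.

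The libraries also differed in ways that the groups do not account for, and ribosomal protein genes moved with those differences. Summed FPKM were 564301 to 696703 in 6 libraries (Acute 1 to 3, TIC 5, TIC 6 and FCS 1d 5), against 335470 to 434577 in the other 16. Of the 9691 genes tested, 353 to 672 were at 0 in 12 libraries (Acute 3, TIC 4 to 6, FCS 1d 3 to 5, FCS 3d 2, FCS 3d 4 and FCS 5d 2 to 4), against 934 to 1295 in the other 10. The 2 sets are called few-zeros and many-zeros libraries here. Both divisions were drawn after the data were seen. Whether either one follows the 2 batches was not tested. All 3 Acute libraries are on the side of the high sums, so this division and the Acute group can be told apart only through the cultures with high sums.

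The start of the mRNA is the sequence feature the family is known for, and the windows printed here let a reader compare members that behave differently in the results. RefSeq promoter windows of the rat build GRCr8 matched 65 of the 82 genes by symbol. The build named in the submitters' processing notes is rn6, so these positions belong to GRCr8 only. In each window of 35 bases, written 5' to 3' on the gene's own strand, 15 bases lie before the annotated start and 20 follow. Capitals mark the annotated first base and the unbroken run of C and T from it.
Rplp1, chr8:71290853-71290887 on the minus strand: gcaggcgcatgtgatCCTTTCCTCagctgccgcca
Rpl10, chrX:157205835-157205869 on the plus strand: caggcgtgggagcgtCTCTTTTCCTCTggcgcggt
Rps15, chr7:10068096-10068130 on the minus strand: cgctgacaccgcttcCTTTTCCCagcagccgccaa
Rps7, chr6:50999426-50999460 on the minus strand: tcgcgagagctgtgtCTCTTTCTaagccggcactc
Rps27, chr2:177964587-177964621 on the minus strand: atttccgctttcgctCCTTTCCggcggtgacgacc
Rps12, chr1:23500060-23500094 on the plus strand: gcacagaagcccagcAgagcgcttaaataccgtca
Rps4x, chrX:71342902-71342936 on the minus strand: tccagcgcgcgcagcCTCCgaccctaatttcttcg
Rpl5, chr14:1995206-1995240 on the minus strand: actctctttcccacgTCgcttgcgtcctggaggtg
Rps27l, chr8:76443643-76443677 on the plus strand: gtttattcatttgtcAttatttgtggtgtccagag
The first 5 of these begin with a C followed by at least 4 more C or T, and the last 4 do not. Searched on the gene's strand at the annotated start only, such a run opened 24 of the 65 matched genes (36.9%), against 2.63% of all 33469 promoter windows in the table. The longest run among these 24 had 12 bases. Rpl27a and Rps23 had runs of 19 bases of C and T, but these begin with a T and are not counted. An annotated start that lies a few bases off would hide a tract, so a missing run says only that these letters are not at this position.

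Ribosomal protein mRNAs were among the most abundant in these cells. Ranked by mean FPKM over all libraries, 17 of the 82 were among the top 100 of all symbols and 66 among the top 500. The median member averaged 351.5 FPKM over the libraries, against 10.5 FPKM for the median tested gene. Among the 6 highest by mean log2 level were Rplp0, the core of the stalk on the large subunit that recruits elongation factors, Rpl10, which joins the large subunit late and lies close to its catalytic centre, the stalk gene Rplp1, Rpl19 and Rpl41. Rplp0 averaged 1424 FPKM and Rpl10 1275 FPKM over the 22 libraries. The lowest were Rps20 at 39.8 FPKM, Rps4y2, a paralogue of Rps4x, at 33.4 FPKM, Rpl39, which lines the exit tunnel, at 25.7 FPKM, and Rpl3l. Reads shared with near-identical processed pseudogenes, which are many in this family, make the level of any single member uncertain, since the estimate can divide them between copies.

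Rpl3l is known in other mammals as a paralogue of Rpl3 found mainly in skeletal and heart muscle. In the cultures it was listed at 0 in all but TIC 6, with 0.56 FPKM, and FCS 1d 4, with 0.37 FPKM, against 3.95, 4.65 and 2.71 FPKM in Acute 1, 2 and 3. It met the floor only through the Acute libraries, so its difference was fixed by the choice and its test carries no weight. Rpl37a was at 0 in TIC 2, FCS 1d 1 and FCS 3d 3 and between 32.6 and 483 FPKM in all other libraries, with its sister symbol Rpl37a-ps1 present throughout. An exact 0 beside values of this size may be a failed estimate, so no change is given for Rpl37a.

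Several members have a paralogue among the 82 genes, and the members of a pair differed in level. Rps4x was the higher of the S4 forms in every group, with median FPKM of 340.2 in Acute, 510.0 in TIC, 446 in FCS 1d, 698 in FCS 3d and 916 in FCS 5d. Rps4y2, whose median was highest in TIC, had 15.8 in Acute, 40.6 in TIC, 30.0 in FCS 1d, 27.6 in FCS 3d and 26.4 in FCS 5d. Rps27 had median FPKM of 351 in Acute, 410.1 in TIC, 337 in FCS 1d, 374 in FCS 3d and 420.5 in FCS 5d, and Rps27l, a form in lower abundance here, had 51.8 in Acute, 224 in TIC, 196 in FCS 1d, 216 in FCS 3d and 171 in FCS 5d. The RNA-binding protein Rpl22 had median FPKM of 53.5 in Acute, 119 in TIC, 148 in FCS 1d, 148 in FCS 3d and 186 in FCS 5d, and Rpl22l1 had 32.0 in Acute, 78.5 in TIC, 46.4 in FCS 1d, 77.8 in FCS 3d and 114 in FCS 5d. Rpl36al exceeded Rpl36a by these medians in every group, with median FPKM of 51.1 in Acute, 153 in TIC, 169.8 in FCS 1d, 175 in FCS 3d and 185 in FCS 5d, against 47.3 in Acute, 71.5 in TIC, 62.1 in FCS 1d, 86.6 in FCS 3d and 94.4 in FCS 5d for Rpl36a. No symbol Rpl10l was measured here.

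Medians are also given for other members that are often studied. Rps6, the protein that the S6 kinases phosphorylate, had median FPKM of 301 in Acute, 391 in TIC, 319.5 in FCS 1d, 404 in FCS 3d and 539.7 in FCS 5d. Rpl11, the partner of Rpl5 in binding Mdm2, had 163 in Acute, 308 in TIC, 288 in FCS 1d, 344 in FCS 3d and 474 in FCS 5d. Rps19, the gene most often mutated in Diamond-Blackfan anaemia in humans, had 159 in Acute, 247 in TIC, 188 in FCS 1d, 246 in FCS 3d and 293 in FCS 5d, and the ubiquitin fusion gene Rps27a had 98.4 in Acute, 248 in TIC, 195 in FCS 1d, 295 in FCS 3d and 324 in FCS 5d. The stalk gene Rplp2 had 51.1 in Acute, 139 in TIC, 144 in FCS 1d, 186 in FCS 3d and 211 in FCS 5d, far under Rplp0 and Rplp1. All 5 had their highest median in FCS 5d, but neighbouring groups in the order of medians overlapped.

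The 82 genes held the smallest share of the summed FPKM in fresh cells and the largest after 5 days of serum. Their share was 3.54%, 2.24% and 4.48% in the Acute libraries. It was 5.25% to 8.68% in TIC, with a median of 6.87%. With serum it was 4.78%, 5.81%, 5.84%, 7.66% and 5.63% in FCS 1d, 8.02%, 9.22%, 7.12% and 9.46% in FCS 3d, and 9.06%, 11.3%, 9.47% and 12.0% in FCS 5d. Every TIC library lay above every Acute library, and every FCS 5d library above every TIC and every FCS 1d library. By group medians of FPKM, 66 of the 82 genes were lowest in Acute and 74 were highest in FCS 5d. The same counts were not made over all tested genes, so these are a description only. Of the libraries behind them, 2 of Acute and 1 of FCS 5d are many-zeros libraries. In each of the 4 cultured groups, the share was lower in every many-zeros library than in the few-zeros libraries with a sum under 500000. The main results are therefore also given within these sets of libraries.

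**Figure D1:**
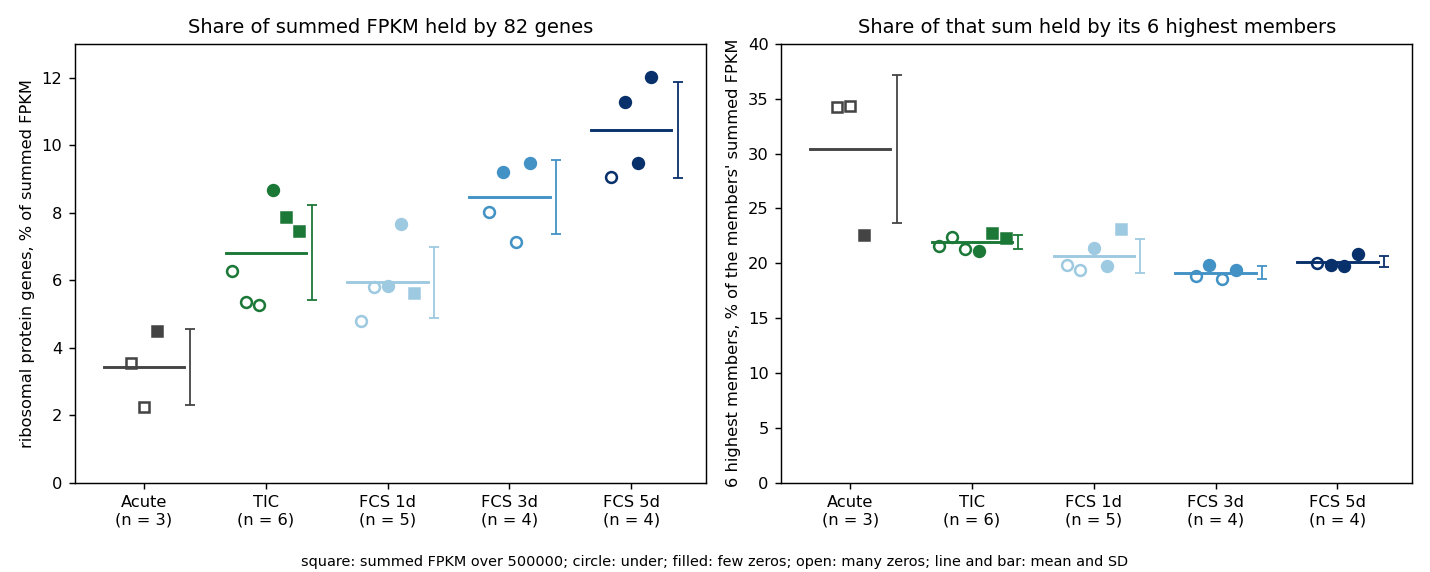
Share of summed FPKM held by the 82 ribosomal protein genes (left, %) and share of the members' own sum held by the 6 highest members of each library (right, %), by group, 1 point per library with mean and SD. The share runs from 2.24% in Acute 2 to 12.0% in FCS 5d 4, and Acute 1 and Acute 2 stand apart on the right at about 34.3%.

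Setting TIC beside Acute asks what 8 days in serum-free medium changed. Of the 82 genes, 30 rose and 2 fell in limma at a Benjamini-Hochberg adjusted p under 0.05, while 14.7% of all 9691 tested genes rose and 27.7% fell. Both subunits took part, with 15 of 50 genes higher for the large and 15 of 32 for the small subunit. The median log2 change of the 82 was 0.849, with quartiles of 0.472 and 1.19, against -0.286 over all tested genes, and 74 of the 82 changes were positive (40.1% of all tested genes). The libraries of the groups did not overlap for 6 genes that were higher in TIC (8.74% of all tested genes) and for 1 that was lower (17.2%), which was Rpl3l. Rpl3l is also 1 of the 2 genes that fell. Its difference was fixed by the floor on FPKM, so it carries no weight in either count. All log2 changes are on the log2(FPKM + 1) scale, with SE from the fit.

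The largest rise was in Rps27l, a paralogue of Rps27 that p53 induces in human and mouse cells. It had 156 to 428 (median 224) FPKM in TIC libraries, against 81.6, 30.4 and 51.8 in Acute libraries, a log2 change of 2.27 ± 0.33 (SE), adjusted p = 7.22e-06. The TIC libraries all lay above the Acute libraries, and Rps27l passed in each of the 24 alternative fits, with log2 changes of 1.92 to 2.98. The stalk gene Rplp1 had 573 to 2118 (median 939.9) FPKM in TIC, against 194, 99.1 and 1119.8 in Acute, a log2 change of 1.92 ± 0.54 (SE), adjusted p = 0.00633. Here Acute 3 lay inside the TIC range and the other Acute libraries far under it. The same held for Rpl39, with 9.61 to 41.0 (median 29.3) FPKM in TIC and 4.45, 1.09 and 27.3 in Acute and a log2 change of 1.92 ± 0.54 (SE), adjusted p = 0.00635, and for Rps28, which sits where the mRNA leaves the small subunit, with 148 to 990.0 (median 322) FPKM in TIC and 90.2, 41.2 and 369.6 in Acute and a log2 change of 1.80 ± 0.53 (SE), adjusted p = 0.00934. Without Acute 2 these 3 calls were lost, with adjusted p of 0.101 for Rplp1, 0.115 for Rpl39 and 0.13 for Rps28.

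Rps15 and Rps13, both of the small subunit, had log2 changes of 1.57 ± 0.42 (SE), adjusted p = 0.00421, and 1.54 ± 0.37 (SE), adjusted p = 0.00184, and their Acute 3 values also overlapped with TIC. The call for Rps15 was lost without Acute 2 (adjusted p = 0.0729). Among few-zeros libraries, where Acute 3 is the only fresh library and is assumed to vary like the others, none of these 5 genes passed. Their log2 changes there were 0.59 for Rplp1 (adjusted p = 0.295), 0.14 for Rpl39 (0.833), 0.81 for Rps28 (0.391), 1.02 for Rps15 (0.0939) and 0.90 for Rps13 (0.0539). Among libraries with sums over 500000 they did not pass either, with log2 changes of 2.18 to 3.06 and adjusted p of 0.0529 to 0.157.

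A further 5 members were higher in every TIC library than in any Acute library, among them Rpl10, Rpl23a, Rpl17 and Rps18. Rpl10 had 1072 to 1911 (median 1441) FPKM in TIC, against 435, 309.7 and 1066 in Acute, a log2 change of 1.45 ± 0.29 (SE), adjusted p = 0.00038. Rpl23a, which lies at the end of the exit tunnel, had 391 to 629 (median 458) FPKM in TIC, against 157, 128 and 333 in Acute, a log2 change of 1.35 ± 0.26 (SE), adjusted p = 0.000228. In both genes the lowest TIC library lay above Acute 3, the highest Acute library, although only just in Rpl10. Rpl17, at 1.19, and Rps18, at 0.67, also did not overlap. Rpl23a, Rpl17 and Rps18 were chosen after their values were seen. Calls for Rpl17 (adjusted p = 0.067) and Rps18 (adjusted p = 0.0749) were lost without Acute 2, and for Rps18 also without Acute 1 (adjusted p = 0.0638). None of these 4 genes passed among few-zeros libraries, with log2 changes of 0.71 for Rpl10 (adjusted p = 0.108), 0.80 for Rpl23a (0.0625), 0.75 for Rpl17 (0.253) and 0.86 for Rps18 (0.0741). Among libraries with sums over 500000 the adjusted p were 0.0902 for Rpl10, 0.0721 for Rpl23a, 0.126 for Rpl17 and 0.112 for Rps18.

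Rpl3, which reaches into the catalytic centre of the large subunit, went the other way and had 334 to 708 (median 527) FPKM in TIC, against 1937, 867 and 548 in Acute, a log2 change of -0.96 ± 0.33 (SE), adjusted p = 0.0223. Acute 3 lay inside the TIC range and Acute 1 far above it. Without Acute 1 the change was -0.46 with an adjusted p of 0.278, and among few-zeros libraries it turned to 0.26.

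**Figure D2:**
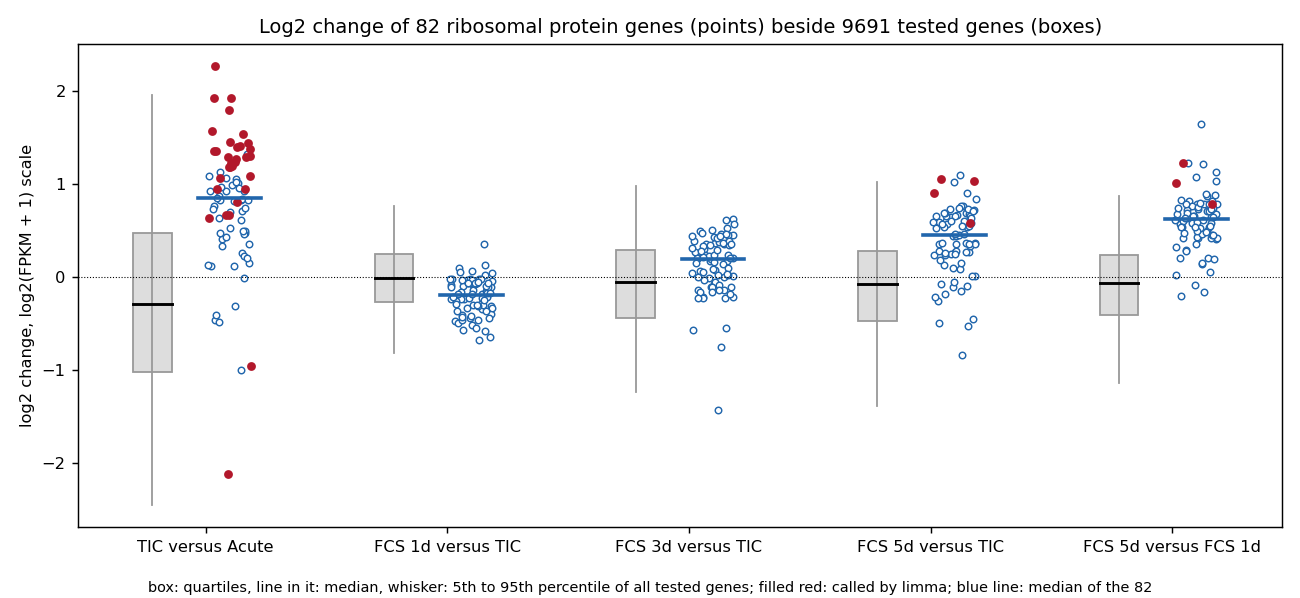
Log2 change, on the log2(FPKM + 1) scale, of the 82 ribosomal protein genes (points, filled where called by limma at an adjusted p under 0.05) beside all 9691 tested genes (boxes with quartiles, whiskers from the 5th to the 95th percentile) in each comparison. The median of the 82 lies above that of all genes in TIC versus Acute (0.849 and -0.286), FCS 3d versus TIC, FCS 5d versus TIC and FCS 5d versus FCS 1d, and below it in FCS 1d versus TIC.

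How many genes passed depended on which libraries and which scaling were used, while the median stayed positive throughout. The median ranged from 0.41 to 1.67 over all alternatives. Without Acute 1, 20 members passed, without Acute 2, 9 passed, and without Acute 3, 51 passed. Of all 9691 tested genes, 1061, 1251 and 1611 rose and 2175, 2241 and 2775 fell in these fits. Scaling each library to the same sum gave 68 members, while 2194 of all tested genes rose and 1646 fell. Among few-zeros libraries, with Acute 3 as the only fresh library, the median change was 0.55.

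Acute 1 and Acute 2 differed from all other libraries in the proportions of members, not only in their sum. The 6 highest members held 18.5% to 23.1% of the summed FPKM of the family in the cultures, against 34.3% in Acute 1 and Acute 2 and 22.6% in Acute 3. The sum of large-subunit members over that of small-subunit members was 1.45 to 1.70 in the cultures, against 1.85, 1.88 and 1.59 in Acute 1, 2 and 3. Set against the median member of its own library, Rpl35 lay between -0.18 and 0.99 log2 units in the 19 cultures and at 1.90, 2.14 and 1.17 in Acute 1, 2 and 3. Rps9 lay between -0.92 and -0.01 log2 units in cultures and between 0.14 and 1.30 in Acute. Of the 82 members, 5 were relatively higher in every Acute library than in any culture, among them Rpl35 and Rps9, while 19.0% of all tested genes were so when set against the same median. Rpl3l is also counted among the 5, but its difference was fixed by the floor on FPKM and carries no weight. In the other direction stood 2 members, Rps13 and Rps15, against 0.671% of all tested genes. Rps13 lay between -0.40 and 0.29 log2 units in cultures and between -1.33 and -0.66 in Acute. Rpl3 and Rps14 overlapped with the cultures only through Acute 3. The genes in this paragraph were picked for these values, which are given with no test.

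**Figure D3:**
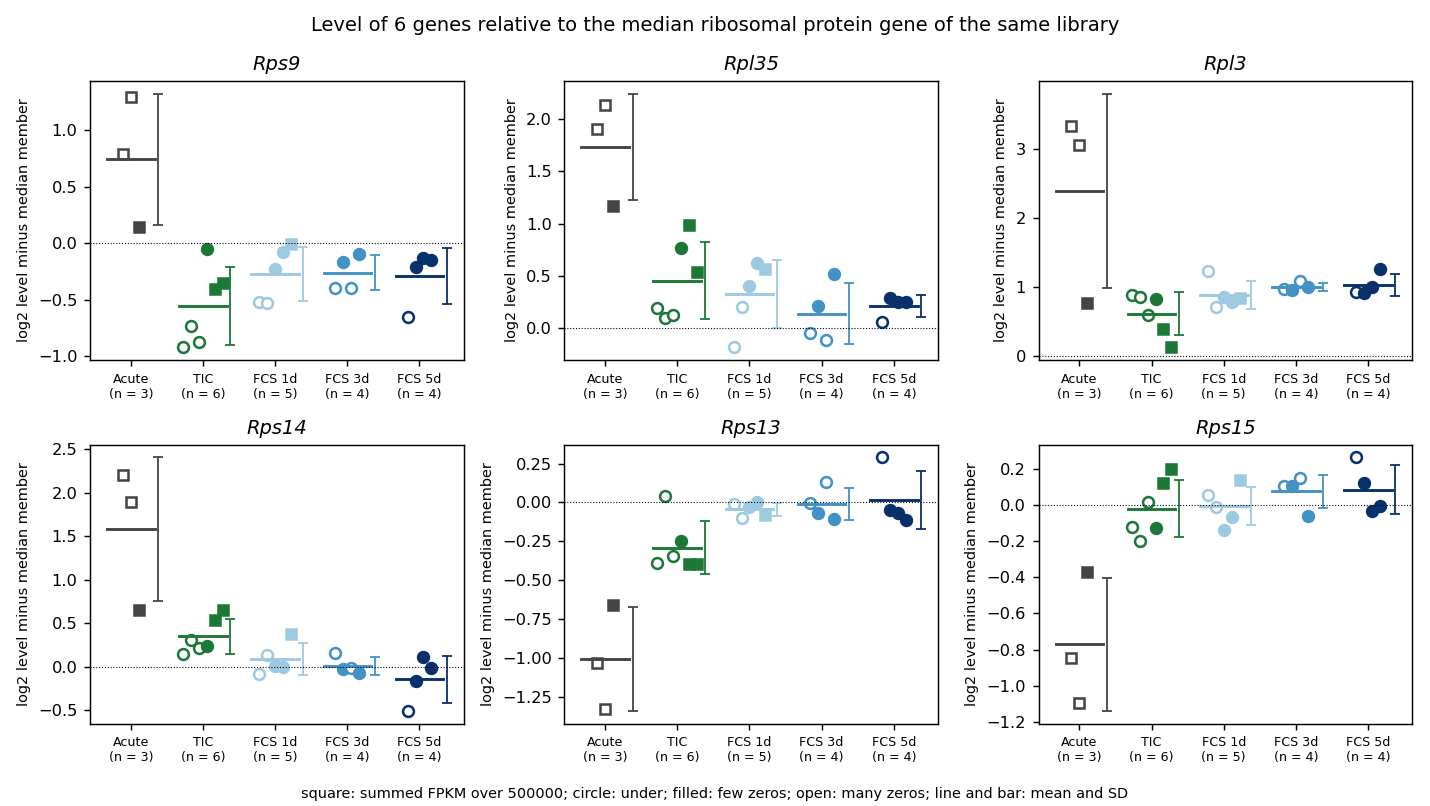
Log2(FPKM + 1) of 6 genes minus that of the median ribosomal protein gene of the same library, by group, 1 point per library with mean and SD. Rps9 and Rpl35 are relatively higher in the 3 Acute libraries than in any culture, Rpl3 and Rps14 in Acute 1 and Acute 2, and Rps13 and Rps15 lowest in the 3 Acute libraries.

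The remaining comparisons ask what serum changed in the last days of culture. After 1 day no ribosomal protein gene passed in limma, while 1.22% of all tested genes rose and 1.7% fell. At an unadjusted p under 0.05 none was higher and 1 lower, while 5.52% of all tested genes were higher and 6.87% lower. The median log2 change was -0.194, against -0.00685 over all tested genes, and 7 of the 82 changes were positive (48.4% of all tested genes). The median level of the members had an SD of 0.53 log2 units between libraries of the same group, pooled over the 5 groups (0.657 in TIC and 0.390 in FCS 1d). That is larger than this shift and than the shifts after 3 and 5 days given below. It is the spread of single libraries, not of a difference between group means. The median change turned to 0.042 among libraries with sums under 500000 and to 0.0038 among many-zeros libraries. The most negative change was that of Rps4y2, with 16.4, 15.2, 30.0, 41.7 and 55.1 FPKM in FCS 1d, against 27.8 to 90.2 (median 40.6) in TIC, a log2 change of -0.68 ± 0.38 (SE), adjusted p = 0.513. In this gene and in every other member the values of the groups overlapped, while 1.58% of all tested genes were higher and 1.92% lower without overlap.

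After 3 days again no member passed, while 4.13% of all tested genes rose and 5.95% fell. At an unadjusted p under 0.05, 1 member was higher and none lower. The median log2 change was 0.194, against -0.0573 over all tested genes, and 58 changes were positive (44.6% of all tested genes). Libraries did not overlap for Rps12 and Rpl5, both higher in FCS 3d (2 of 82, against 5.11% of all tested genes), and for no member that was lower (6.84%). Among libraries with sums under 500000, where TIC 5 and TIC 6 are left out, 14 members passed, all higher. There 1010 of all 9691 tested genes rose and 680 fell, and the median change of the members was 0.508. Among few-zeros libraries, where TIC 5 and TIC 6 are kept, the median was -0.18, against -0.23 over all tested genes.

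After 5 days of serum 4 of the 82 members (4.88%) rose and none fell, while 4.81% of all tested genes rose and 8.1% fell. At an unadjusted p under 0.05 the limma fit had 16 members higher and none lower, while 9.62% of all tested genes were higher and 15.6% lower. The median log2 change was 0.453, with quartiles of 0.241 and 0.661, against -0.0795 over all tested genes, and 70 of the 82 changes were positive (43.3% of all tested genes). Libraries did not overlap for 5 members that were higher in FCS 5d (5.15% of all tested genes) and for none that was lower (8.38%). The share that passed was close to that of all tested genes. Among few-zeros libraries the median change was 0.0253, with 2 members higher and 1 lower, against -0.2277 over all tested genes. With the zeros division as a term it was 0.255, with 6 members higher and 1 lower, against -0.1417 over all tested genes. In these fits, 461 and 526 of all tested genes rose and 1020 and 1073 fell. The few-zeros libraries include TIC 5 and TIC 6, with sums over 500000, while all FCS 5d sums are under it. That set is therefore not matched for the summed-FPKM division. Among libraries with sums under 500000 the median change was 0.778, against 0.0721 over all tested genes. With both divisions as terms it was 0.410, against 0.001.

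The 4 genes that passed had no overlap between FCS 5d and TIC. Rps12, on the beak of the small subunit, had 238, 274, 175 and 295 FPKM in FCS 5d, against 81.2 to 151 (median 121) in TIC, a log2 change of 1.05 ± 0.30 (SE), adjusted p = 0.0229. The X-linked form of the S4 protein, Rps4x, had 786, 1045, 757 and 1239 FPKM in FCS 5d, against 377 to 659.9 (median 510.0) in TIC, a log2 change of 0.90 ± 0.23 (SE), adjusted p = 0.00896. Rpl5, which together with Rpl11 and 5S ribosomal RNA can bind Mdm2, had 575, 465, 361 and 514 FPKM in FCS 5d, against 262 to 347 (median 331) in TIC, a log2 change of 0.58 ± 0.19 (SE), adjusted p = 0.0441. In FCS 3d, Rps12 had 173, 165, 154 and 167 FPKM, between the values of TIC and FCS 5d. In the same libraries Rps4x had 628, 792, 568 and 768 FPKM and Rpl5 524, 403, 433 and 379 FPKM, which overlapped with FCS 5d. Rpl12, at the base of the stalk, had 78.3, 135, 97.9 and 133 FPKM in FCS 5d, against 17.3 to 77.1 (median 68.2) in TIC, where TIC 2 was far under the others, and a log2 change of 1.03 ± 0.34 (SE), adjusted p = 0.0496. None of the 4 genes has a C followed by at least 4 C or T at its annotated start, but Rps4x has a run of 4 from a C and Rpl12 a run of 5 from a T. Over all matched genes the median change was 0.36 for the 24 with such a run and 0.57 for the 41 without. In TIC against Acute the medians were 0.69 and 0.83, with 10 of the 24 and 13 of the 41 called higher (14.7% of all tested genes). Whether the 2 sets differ was not tested, and starts annotated a few bases off could hide a tract.

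Most of these calls rest on few libraries. The library FCS 5d 4, with the highest share of ribosomal protein genes, was needed for all 4, since without it adjusted p were 0.088 for Rps12, 0.0549 for Rps4x, 0.13 for Rpl5 and 0.15 for Rpl12. Rps12 was also lost without FCS 5d 2 (adjusted p = 0.0751), Rpl12 without any of 6 libraries and Rpl5 without any of 8. The number of members that passed was 2 without TIC 1, TIC 2 or TIC 3, 8 without TIC 5, 1 without FCS 5d 2 and 0 without FCS 5d 4. It was 47 among libraries with sums under 500000, where TIC is left with TIC 1 to 4 and where 1059 of all 9691 tested genes rose and 872 fell. Rps12 and Rps4x passed both there (adjusted p of 0.00124 and 0.00249) and among few-zeros libraries (0.0261 and 0.0466), where Rpl5 (0.207) and Rpl12 (0.0591) did not. Each of these sets leaves the other division unmatched. With both divisions as terms, Rps4x and Rpl5 kept their calls, while Rps12 (adjusted p = 0.0802) and Rpl12 (0.0809) lost theirs.

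Among members that did not pass, Rps3, with 695, 811, 695 and 905 FPKM in FCS 5d and 382 to 677 (median 527) in TIC, had no overlap either, with a log2 change of 0.60 ± 0.22 (SE), adjusted p = 0.0733. Rpl29 had a log2 change of 1.02 ± 0.34 (SE), adjusted p = 0.0525, and Rpl3 one of 0.84 ± 0.30 (SE), adjusted p = 0.0689. The most negative changes were those of Rps4y2, with 16.3, 26.3, 34.1 and 26.5 FPKM in FCS 5d and 27.8 to 90.2 (median 40.6) in TIC and a log2 change of -0.84 ± 0.41 (SE), adjusted p = 0.201, Rps27, at -0.53 ± 0.48 (SE), adjusted p = 0.561, and its paralogue Rps27l, at -0.49 ± 0.30 (SE), adjusted p = 0.341. Rps27 had 261, 441, 399.9 and 474 FPKM in FCS 5d, against 280.4 to 415 FPKM in TIC 1 to 4 and 1272 and 1439 FPKM in TIC 5 and TIC 6, which were also the highest TIC libraries for Rps4y2. Rps4x and Rps4y2 thus had changes of opposite sign in this comparison, of which that of Rps4x passed. Rps4y2 passed as lower among few-zeros libraries (log2 change of -1.21, adjusted p = 0.0206), with the zeros division as a term (-1.11, adjusted p = 0.00215) and with both divisions as terms (-0.85, adjusted p = 0.0113).

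**Figure D4:**
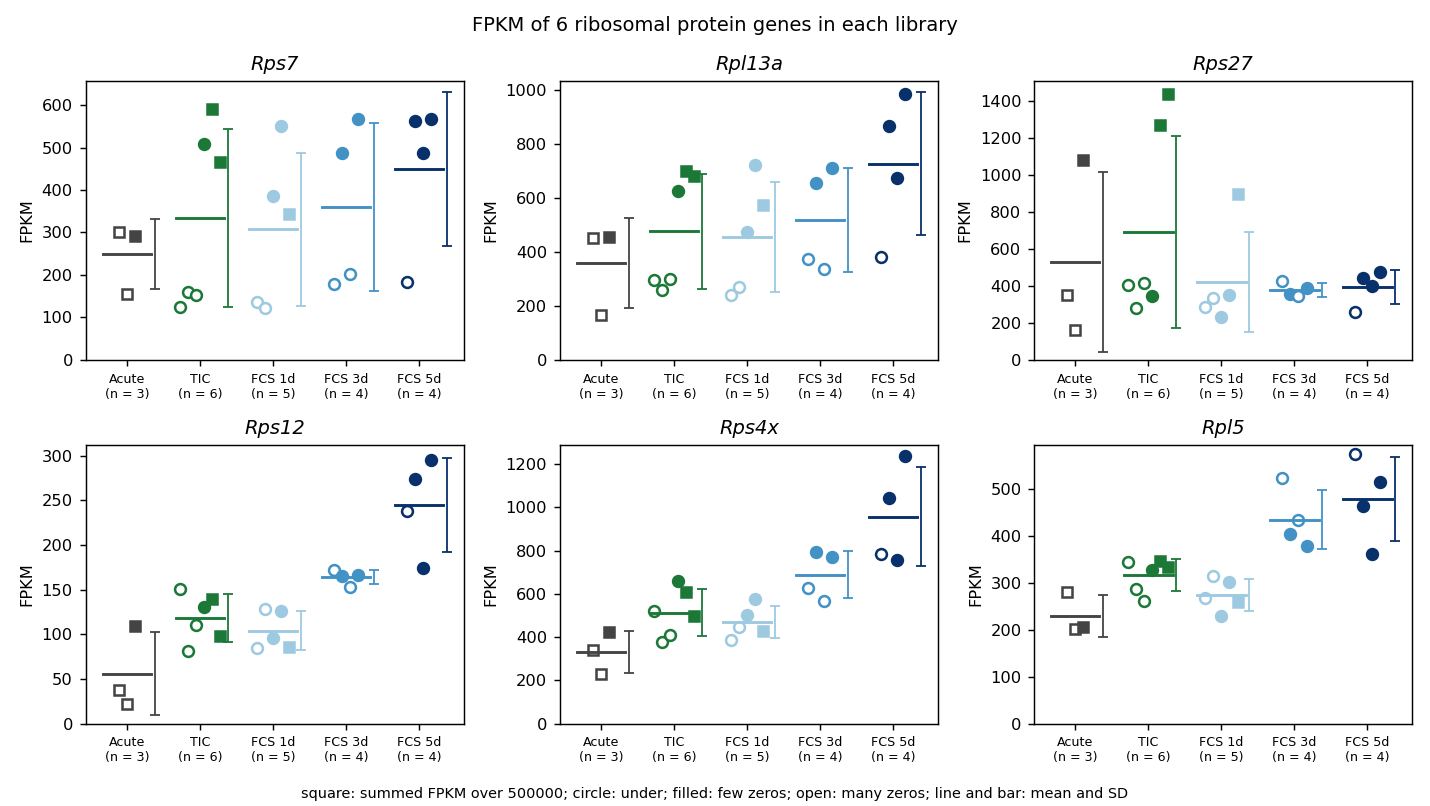
FPKM of 6 ribosomal protein genes in each library, by group, with mean and SD; filled points are few-zeros libraries and squares libraries with summed FPKM over 500000. Rps7 and Rpl13a differ between filled and open points within each cultured group, Rps27 is high in TIC 5 and TIC 6, and Rps12, Rps4x and Rpl5 are higher in all FCS 5d libraries than in TIC.

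Setting FCS 5d beside FCS 1d compares 2 lengths of time in serum. Of the 82 genes, 3 rose and none fell, while 1.92% of all tested genes rose and 3.46% fell. At an unadjusted p under 0.05, 27 were higher and none lower, while 6.84% of all tested genes were higher and 10.9% lower. The median log2 change was 0.622, against -0.0679 over all tested genes, and 79 of the 82 changes were positive (42.8% of all tested genes). Libraries did not overlap for 18 genes that were higher in FCS 5d (4.67% of all tested genes) and for none that was lower (7.48%). Over all alternatives the median lay between 0.47 and 0.84.

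The 3 genes were again Rps12, Rps4x and Rpl5, and since FCS 5d enters both comparisons, this is no independent evidence. Rps12 had 238, 274, 175 and 295 FPKM in FCS 5d, against 84.7, 128, 95.8, 127 and 85.4 in FCS 1d, a log2 change of 1.23 ± 0.32 (SE), adjusted p = 0.0211. Rps4x had 388, 446, 502, 577 and 429.9 FPKM in FCS 1d, and its log2 change was 1.01 ± 0.23 (SE), adjusted p = 0.00958. Rpl5 had 268, 314, 229, 302 and 260.1 FPKM in FCS 1d, and its log2 change was 0.79 ± 0.20 (SE), adjusted p = 0.017. The lowest FCS 5d library lay above the highest FCS 1d library in each gene. Without FCS 5d 4 none of the 82 passed, with adjusted p of 0.0782, 0.0543 and 0.0607 for these genes, while all 3 passed among few-zeros libraries (0.0151, 0.0277 and 0.0491) and among libraries with sums under 500000 (0.000979, 0.0037 and 0.00459). Rps12 was also lost without FCS 1d 1 (adjusted p = 0.0522), FCS 1d 5 (0.0531) or FCS 5d 2 (0.0765), and Rpl5 without FCS 1d 3 (0.0534) or FCS 5d 1 (0.0736). Rpl22l1, a paralogue of Rpl22, had 54.1, 111, 120.1 and 116 FPKM in FCS 5d and 23.7, 18.9, 46.4, 74.3 and 66.5 in FCS 1d, with a log2 change of 1.23 ± 0.45 (SE), adjusted p = 0.12, and did not pass.

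Proteins of the ribosome whose symbols fall outside the rule gave a mixed picture. The small-subunit protein Rpsa and the scaffold protein Rack1, listed as Gnb2l1, rose in TIC against Acute and again in FCS 5d against TIC. Rpsa had 679.5, 893, 766 and 981 FPKM in FCS 5d, 384 to 529 (median 451) in TIC and 170.1, 128 and 328 in Acute, with log2 changes of 0.87 ± 0.23 (SE), adjusted p = 0.0112, for FCS 5d against TIC and 1.22 ± 0.25 (SE), adjusted p = 0.000417, for TIC against Acute. Gnb2l1 changed by 0.73 ± 0.19 (SE), adjusted p = 0.0113, in the serum comparison and by 0.64 ± 0.21 (SE), adjusted p = 0.0159, in TIC. Fau, made as a fusion with a ubiquitin-like protein, did not pass in the main fit of any comparison. It had log2 changes of 0.64 in TIC against Acute and 0.39 in FCS 5d against TIC, and both were negative among few-zeros libraries. Fau passed as higher in TIC with equal FPKM sums (adjusted p = 0.0362), the summed-FPKM term (0.0133), both terms (0.0223) and without Acute 3 (0.0352). In FCS 5d against TIC it passed as higher among libraries with sums under 500000 (0.0287). Rpsa and Gnb2l1 lost the serum call without FCS 5d 4 (adjusted p of 0.0547 and 0.0624), and Gnb2l1 lost the call in TIC without Acute 2 (0.118). Among few-zeros libraries the calls in TIC were lost for Rpsa (log2 change of 0.59, adjusted p = 0.178) and Gnb2l1 (0.46, adjusted p = 0.292), and the serum call for Gnb2l1 (0.60, adjusted p = 0.0711).

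Elongation factors and other mRNAs known to carry a terminal oligopyrimidine tract moved in the same direction as the members. Of the 24 tested, 10 rose and none fell in TIC against Acute, with a median log2 change of 0.538, while 14.7% of all tested genes rose and 27.7% fell. In FCS 5d against TIC 7 rose and none fell, with a median of 0.415, while 4.81% of all tested genes rose and 8.1% fell. Eef2, the translocase of elongation, had mean FPKM of 533 ± 105 in FCS 5d and 346 ± 75.2 in TIC (SD), a log2 change of 0.63 ± 0.20 (SE), adjusted p = 0.0358. Ybx1, an mRNA-binding protein, had a log2 change of 1.87 ± 0.48 (SE), adjusted p = 0.00351, in TIC against Acute. Eef1a1, which delivers aminoacyl-tRNA, had mean FPKM of 2649 ± 699 in FCS 5d and 2250.0 ± 531 in TIC (SD) and did not pass, with a log2 change of 0.23 ± 0.24 (SE), adjusted p = 0.634. Calls for Eef2 were lost without any of 6 libraries, among them FCS 5d 4 (adjusted p = 0.159). Among few-zeros libraries the calls were lost for Eef2 in FCS 5d (adjusted p = 0.0676) and for Ybx1 in TIC (log2 change of 1.11, adjusted p = 0.312).

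Of 59 ribosome biogenesis genes, 6 rose and 12 fell in TIC against Acute, with a median log2 change of -0.213, both smaller shares than the 14.7% and 27.7% of all tested genes. With serum 1 rose after 1 day, 3 after 3 days and 2 after 5 days and none fell, while 1.22%, 4.13% and 4.81% of all tested genes rose at these times. Fbl, fibrillarin, the methyltransferase of ribosomal RNA in the nucleolus, passed at all 3 times. It had mean FPKM of 12.8 ± 4.55 in TIC, 25.9 ± 6.43 in FCS 1d, 31.5 ± 1.44 in FCS 3d and 22.7 ± 3.11 in FCS 5d (SD), with log2 changes of 1.00, 1.30 and 0.84 and adjusted p of 0.0126, 0.001 and 0.0231. Among few-zeros libraries the calls after 1 day (0.245) and 5 days (0.153) were lost. The call after 1 day was also lost without FCS 1d 2 (0.0542), and the call after 5 days without TIC 3 (0.0568), FCS 5d 2 (0.0774) or FCS 5d 3 (0.0682). Myc, a driver of ribosome production, rose after 3 days, with 26.9, 29.9, 21.7 and 34.1 FPKM in FCS 3d, against 7.91 to 21.7 (median 11.9) in TIC, a log2 change of 1.06 ± 0.28 (SE), adjusted p = 0.0173, a call lost without FCS 3d 2 (0.0576) or FCS 3d 4 (0.0705) and among few-zeros libraries (0.0692). Of 15 genes for RNA polymerase I and ribosomal DNA transcription, 2 rose and 4 fell in TIC against Acute, about the shares of all tested genes (14.7% and 27.7%), and none passed after 1, 3 or 5 days of serum.

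Among ribosome quality control and nucleolar stress genes, the p53 targets Cdkn1a and Mdm2 fell with serum. Of the 15 tested, 5 rose and 2 fell in TIC against Acute, while 14.7% of all tested genes rose and 27.7% fell. After 3 and after 5 days of serum 4 fell and none rose, while 5.95% and 8.1% of all tested genes fell. Cdkn1a, which halts the cell cycle, had mean FPKM of 88.7 ± 34.4 in TIC and 0.806 ± 0.424 in Acute (SD), a log2 change of 5.57 ± 0.32 (SE), adjusted p = 2.65e-12. After 5 days of serum it had mean FPKM of 21.9 ± 6.48 in FCS 5d and 88.7 ± 34.4 in TIC (SD), a log2 change of -1.93 ± 0.30 (SE), adjusted p = 8.56e-05. Mdm2, the p53 ligase that Rpl5 and Rpl11 can bind, had mean FPKM of 22.2 ± 0.823 in FCS 5d and 47.3 ± 8.22 in TIC (SD), a log2 change of -1.04 ± 0.24 (SE), adjusted p = 0.00434. Pelo, which helps release stalled ribosomes, had mean FPKM of 23.5 ± 4.02 in FCS 5d and 55.2 ± 20.9 in TIC (SD), a log2 change of -1.13 ± 0.30 (SE), adjusted p = 0.0139, a call lost without FCS 5d 4 (0.0553). Over the same interval 14 of 16 cell cycle genes rose and none fell, while 4.81% of all tested genes rose. Of 69 genes for proteins of the mitochondrial ribosome, none rose and 18 fell in TIC against Acute, the number that fell being close to the share of all tested genes (27.7%), with a median log2 change of -0.592. None passed after 1, 3 or 5 days of serum.

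Within the groups, ribosomal protein genes separated the few-zeros from the many-zeros libraries. In all 4 cultured groups, 44 of the 82 genes were higher in every few-zeros library than in any many-zeros library of the same group, against 6.64% of all tested genes, and no member was lower in all 4, against 0.702%. The median difference over the members was 1.23 log2 units in TIC, 0.67 in FCS 1d, 0.40 in FCS 3d and 0.59 in FCS 5d, against 0.40, 0.20, 0.09 and 0.24 over all tested genes. Rps7, of the small subunit, had 137, 122, 385, 550.1 and 344 FPKM in FCS 1d 1 to 5 and 179, 488, 202 and 568 in FCS 3d 1 to 4. The low values of Rps7 are those of the many-zeros libraries, and its differences were 1.46 to 1.84 log2 units in the 4 groups. Rpl13a, a component of the GAIT complex that silences inflammatory mRNAs in human myeloid cells, differed by 0.94 to 1.23, and Rps25 by 0.71 to 1.67. Rps12, Rpl5 and Rpl30 showed no such gap, and Rpl5 and Rpl30 were lower in the few-zeros libraries of FCS 3d and FCS 5d. These genes were picked for this pattern, so the values are a description with no test.

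A second pattern set TIC 5 and TIC 6 apart from TIC 1 to TIC 4. In these libraries 67 of the 82 genes were higher than in all 4 others, against 41.8% of all tested genes, with a median difference of 1.13 log2 units over the members and 0.50 over all tested genes. Leaving out Rpl37a, it was widest in Rpl38 at 2.89, Rpl36 at 2.53 and Rps27 and Rpl36al at 1.92 each. Rps29 had 2123 and 1885 FPKM in the libraries TIC 5 and TIC 6, while TIC 1 to 4 had 361.57 to 687. It had 1231 FPKM in FCS 1d 5 and 1292 FPKM in Acute 3, against at most 912 in all other libraries. The 4 libraries with the highest Rps29 are the few-zeros libraries with summed FPKM over 500000.

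**Figure D5:**
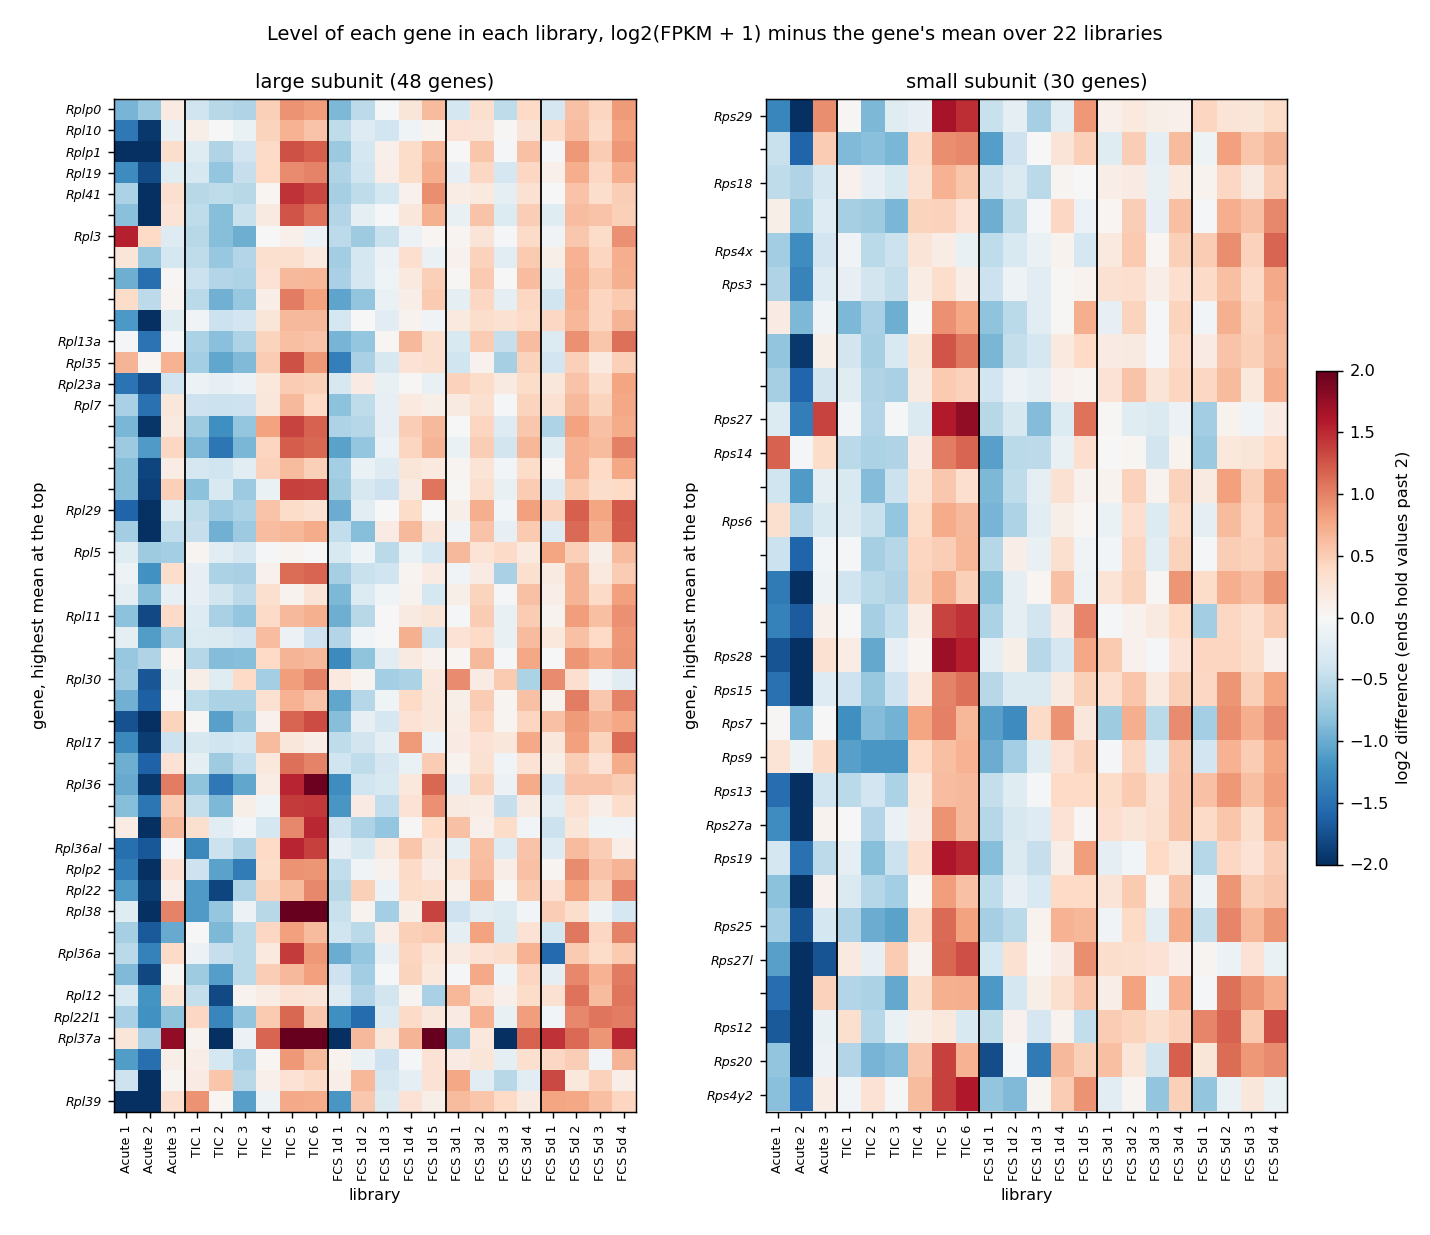
Log2(FPKM + 1) of 78 ribosomal protein genes minus each gene's mean over 22 libraries, large subunit left and small subunit right, with libraries in columns and groups divided by lines. Rpl3l, at 0 in most libraries, and 3 other members are not drawn, and genes described here are labelled. Acute 2 is low in nearly all genes, TIC 5 and TIC 6 are high, and FCS 5d 2 to 4 are high in most.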

How the data were processed

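Poly-A RNA of 22 samples was amplified by SmartSeq2, made into Nextera XT libraries and sequenced on a MiSeq in 2 batches, per the labels' protocols. The authors deposited 1 table of FPKM values per gene symbol and sample. HISAT2 2.0.3, Cufflinks 2.2.1 and the build rn6 are named in the submitters' processing notes, without settings. Values without counts leave the depth unknown, so no counting interval is given, and the number of samples limits the precision. All table columns belonged to a sample.

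FPKM were taken as deposited, without rescaling, as log2(FPKM + 1). The 9691 genes that reached 1 FPKM in 3 or more samples entered a limma 3.58.1 fit (R 4.3.3, trend and robust) of 5 group means over all 22 samples, with two-sided tests and Benjamini-Hochberg adjustment over all 9691 genes in each comparison at 0.05. The fit was tested on simulated data with independent noise in each gene and no differences between whole libraries. Such data cannot show whether calls hold under the library divisions described above. Tables and figures were made with Python 3.11.15, pandas 2.3.3 and numpy 2.4.6. Where samples share animals or cultures, p-values measure only the spread between these samples. The most similar pair of libraries (FCS 3d 2 and FCS 3d 4, r = 0.979) shared no identical value above 0, so none was merged. The batch of a sample is not given in the sources used here, so no fit within batches was made.

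Genes named are the 6 highest and 4 lowest members, up to 6 called members with the largest changes per comparison, a set of well-known members and paralogues, members next to the floor, up to 4 called genes per list and a few partners. A few genes that this rule names are not reported here. Members, gene lists and library divisions were chosen with earlier results of these data known. Alternatives were pseudocounts of 0.1 and 5, no filter and a floor of 5 FPKM, 3 scalings, fits of the groups compared alone, a block by replicate number, the divisions by summed FPKM (500000) and by genes at 0 (800), and leaving out each library. Fits with the zeros division, alone or with the other, as a term were added after seeing the data.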

Additional observations from a re-analysis of the deposited data

Results flagged for a closer look

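The named members, the share of summed FPKM and the ratio of large-subunit to small-subunit sums were checked for a library far from the others. There were 100 sets of 1 such measure in 1 group of 4 to 6 libraries, of which chance flags about 1 in 20. A library was flagged in 6, all of them sets of a gene. Rpl3l, at 0 in all of FCS 3d and FCS 5d, could not be flagged there. Rpl12 had 17.32 FPKM in TIC 2, while the rest of TIC had 44.7 to 77.1. Rpl17 had 374.52 FPKM in FCS 1d 4, against 146 to 191 in the others of that group. Rpl10 had 1197.89 FPKM in FCS 3d 3, against 1410.0 to 1440.0 in the others. Rpl22l1 had 54.11 FPKM in FCS 5d 1, a many-zeros library, against 111 to 120.0 in the others. Rpl3l was listed at 0.56 FPKM in TIC 6 and at 0.37 FPKM in FCS 1d 4 and at 0 in all other libraries of those groups.

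Among the members and partner genes chosen for values here, the response to serum differed between 5 days and 1 day for 8, by the limma contrast of FCS 5d against FCS 1d at an adjusted p under 0.05. By the same contrast 1.92% of all tested genes were higher and 3.46% lower. Log2 changes were 1.23 for Rps12, 1.01 for Rps4x and 0.79 for Rpl5 among the members. Outside them they were 0.92 for Gnb2l1, 0.82 for Rpsa, 0.85 for Tpt1, 0.79 for Eef2 and 0.90 for Eef1b2. Each was higher in FCS 5d. Of 24 alternative fits, calls were lost in 5 for Rps12, 2 for Rps4x and 5 for Rpl5. Outside the members they were lost in 10 for Eef1b2, 9 for Rpsa, 7 for Eef2, 5 for Tpt1 and 1 for Gnb2l1.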

How the results depend on the processing

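Pseudocounts of 0.1 and 5, no filter and a floor of 5 FPKM kept every count of members that passed within 1.5 times of that reported. In TIC against Acute, 32 members passed, and 61 did with median-of-ratios scaling, 62 with quantile normalization, 68 with equal FPKM sums, 12 with only the groups compared, 66 with a term for the summed-FPKM division, 8 among libraries over 500000, 8 among few-zeros libraries, 52 with the zeros division as a term and 59 with both. The median change was 1.48 with the summed-FPKM term and 1.67 among libraries over 500000. Of the 52 members with the zeros term, 48 were higher and 4 lower. Leaving out single libraries gave 9 to 51 calls and medians of 0.41 to 1.3. Median-of-ratios scaling moved the median of all tested genes to -0.0013 and that of the members to 1.2. With the 3 scalings in the same order, 2022, 2012 and 2194 of all 9691 tested genes rose, against 1424 as reported. Only the groups compared gave 913 higher and 1814 lower over all tested genes, and libraries over 500000 gave 507 and 427. The numbers were 1963 and 1763 with the summed-FPKM term, 1517 and 3075 with the zeros term and 1789 and 1830 with both. In FCS 1d against TIC, no member passed, and 1 did with the zeros term and 1 with both terms, lower in each. Over all tested genes, 152 rose and 236 fell with the zeros term, and 255 and 286 with both. The median change of the members was 0.042 among libraries under 500000 and 0.0038 among many-zeros libraries. Leaving out single libraries gave 0 calls and medians of -0.33 to -0.04. In FCS 3d against TIC, no member passed. Higher members numbered 3 with quantile normalization, 3 with equal sums, 14 under 500000, 1 among many-zeros libraries and 4 with both terms. With the zeros term 1 passed, as lower. All tested genes that rose in these fits numbered 639, 704, 1010, 85 and 671, while 526 rose and 749 fell with the zeros term. The median change of the members was -0.18 among few-zeros libraries, and leaving out single libraries gave 0 calls and medians of 0.023 to 0.35. In FCS 5d against TIC, 4 passed, and 14, 19 and 32 did with the 3 scalings in the same order, 2 with only the groups compared, 19 with the summed-FPKM term, 47 under 500000, 0 among many-zeros libraries, 7 with the zeros term and 11 with both. The 7 with the zeros term and the 11 with both include 1 lower member each. Leaving out single libraries gave 0 to 8 calls and medians of 0.33 to 0.6. Of all tested genes, 673, 762 and 848 rose with the 3 scalings, against 466 as reported. Their rises and falls numbered 452 and 734 with only the groups compared, 678 and 669 with the summed-FPKM term and 1059 and 872 under 500000. They numbered 526 and 1073 with the zeros term and 542 and 703 with both. In FCS 5d against FCS 1d, 3 passed, and 19, 9 and 34 did with the 3 scalings, 10 with only the groups compared, 18 with the summed-FPKM term, 30 under 500000, 8 among few-zeros libraries, 0 among many-zeros libraries, 15 with the zeros term and 27 with both. Leaving out single libraries gave 0 to 4 calls and medians of 0.47 to 0.75. Of all tested genes, 311, 332 and 381 rose with the 3 scalings, against 186 as reported. There were 272 rises and 437 falls with only the groups compared, 318 and 389 with the summed-FPKM term and 452 and 542 under 500000. Few-zeros libraries gave 271 and 376, the zeros term 280 and 537, and both terms 367 and 490. Fits within a set of libraries test fewer samples, and FCS 5d among many-zeros libraries, Acute among few-zeros libraries and FCS 1d among libraries over 500000 are 1 library each, assumed to vary like the other groups. For other moves the cause was not tested.

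The sign reversed in 8 alternative fits of named changes, all of them for Rpl3, Fau or Rps27. Those with the replicate block are given below. In TIC against Acute among few-zeros libraries, Rpl3 was 0.26 and Fau -0.17, and Fau was -0.056 without Acute 2. In FCS 5d against TIC, Rps27 was 0.065 with the summed-FPKM term and 0.11 under 500000, and among few-zeros libraries Fau was -0.29. In the other fits of named changes, 1563 kept their direction and side of the threshold, 249 were no longer called and 73 became called.

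With the replicate number as a block, 24 members passed in TIC against Acute (18 higher and 6 lower, against 30 and 2 without it), 0 in FCS 1d, 3 in FCS 3d and 28 in FCS 5d against TIC, and 24 in FCS 5d against FCS 1d, with median changes of 0.42, -0.065, 0.46, 0.74 and 0.80. In the same order of comparisons, 1300, 266, 648, 764 and 351 of all tested genes rose and 3539, 223, 484, 694 and 411 fell. With the block, Fau was -0.092 in TIC against Acute and Rps27 0.082 in FCS 5d against TIC. The deviations of 37 pairs of libraries with the same number correlated from -0.103 to 0.477, with a median of 0.097 (-0.036 for pairs of other numbers), and 18 pairs exceeded 0.1. No label says what a number shares, so the numbers were not used as pairs. Number 1 is a many-zeros library in all 5 groups and number 4 a few-zeros library in the 4 groups that have it, so the block and the zeros division overlap.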

Other observations

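Set against the median member of the same library, the members that varied least over the 22 libraries were Rpl6, Rpl7 and Rpl26, with SDs of 0.131, 0.146 and 0.156 log2 units. They were chosen after their values were seen.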
